A study of Mus musculus with 12 samples.

Results

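The transcripts described here are those of 46 genes of the cell cycle and of proliferation, from the G1 cyclins to the kinesins of cell division, chosen by name. Transcript clusters with exactly 1 gene symbol in the platform annotation represented 45 of them. All 45 passed the filter on low values, out of 15868 genes tested in the series. Expression of Ccnb1 was not analysed here, and that gene enters only the promoter counts. Each of the 45 genes lay above the array background on all 12 arrays, so none of the differences below had to be given as a bound.

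The arrays measured RNA of cultured primary keratinocytes, the cells that build the epidermis, from FVB/N mice. There were 4 groups of 3 arrays. The first held wild-type control cells, and the second wild-type cells transduced with v-rasHa, the activated Hras gene of a sarcoma virus, here called RAS cells. The third held control cells of the transgenic line MT-HGF, in which a metallothionein promoter drives hepatocyte growth factor (HGF), a secreted protein that activates the receptor MET. In the fourth, mock-transduced MT-HGF cells in 8% serum received AG1478, which inhibits the kinase activity of EGFR (the epidermal growth factor receptor), for 24 h. For the first 9 arrays the labels name regular medium without starvation and a transduction of 3 days, without saying whether the control cells went through a mock step. Oncogene and transduction therefore cannot be told apart. The AG1478 arrays carry growth, treatment and extraction notes of their own, and no vehicle-treated array was used here, so treatment, mock transduction, serum and preparation cannot be told apart in any comparison with them.

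A cell enters the division cycle when cyclin D kinases, and then cyclin E with CDK2, release the E2F transcription factors from the retinoblastoma protein. E2F factors raise the genes that license origins, build the replication fork and make nucleotides. Later, the DREAM complex and the factors B-MYB and FOXM1 control a second wave, which holds the cyclin B and CDK1 pair, the spindle checkpoint, the kinesins and the proteins of the centromere. In epidermis only basal keratinocytes divide, and EGFR signalling is a main stimulus of their division. Messenger RNA of the late genes falls after each mitosis, so that in a mixed culture their level rises with the share of cycling cells. In bulk RNA, fewer cycling cells and less RNA per cycling cell cannot be told apart.

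Promoter sequence is shown for 5 members, to make visible the motif words counted below. The sequences are from RefSeq on GRCm38.p6 (the C57BL/6J reference, not FVB/N). Each is the 180 bases before the annotated start, 5′ to 3′ on the strand of the gene. Capitals mark TTTGAA, the cell cycle homology region bound by the DREAM complex, CCAAT, the box bound by NF-Y, and 4 forms of the E2F site, which are TTCCCGC, a form with TTCGCGC, another with TTGCCGC, and lastly the form TTGGCGC, on either strand. Matched words may overlap each other, as E2F words on opposite strands do in Mcm5. The examples were chosen after motifs and values were seen, among members with a called rise.
Cdc6 (chr11:98907971-98908150, plus strand): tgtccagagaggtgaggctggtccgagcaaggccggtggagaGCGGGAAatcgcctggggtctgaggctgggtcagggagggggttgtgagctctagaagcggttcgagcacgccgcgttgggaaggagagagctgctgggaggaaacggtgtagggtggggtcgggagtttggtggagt
Mcm5 (chr8:75109329-75109508, plus strand): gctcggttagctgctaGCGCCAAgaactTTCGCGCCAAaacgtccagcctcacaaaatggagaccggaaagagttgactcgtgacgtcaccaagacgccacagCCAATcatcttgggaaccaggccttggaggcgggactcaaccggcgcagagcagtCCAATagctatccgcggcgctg
Cdk1 (chr10:69352913-69353092, minus strand): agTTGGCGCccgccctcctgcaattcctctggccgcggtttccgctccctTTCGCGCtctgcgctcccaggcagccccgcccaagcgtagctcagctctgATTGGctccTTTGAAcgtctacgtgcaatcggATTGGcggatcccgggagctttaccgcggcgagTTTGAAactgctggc
Top2a (chr11:99024190-99024369, minus strand): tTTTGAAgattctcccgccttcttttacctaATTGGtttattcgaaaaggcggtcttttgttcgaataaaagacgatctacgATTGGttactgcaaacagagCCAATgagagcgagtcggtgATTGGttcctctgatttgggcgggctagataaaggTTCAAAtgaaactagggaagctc
Ube2c (chr2:164769749-164769928, plus strand): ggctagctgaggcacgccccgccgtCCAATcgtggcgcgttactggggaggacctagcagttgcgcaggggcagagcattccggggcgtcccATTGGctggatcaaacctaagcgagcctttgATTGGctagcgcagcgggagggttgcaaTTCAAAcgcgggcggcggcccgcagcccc
The promoter table held 37 of the 46 members with 39 windows of 300 bases, from 250 before to 50 after the start. An E2F word stood in 10 of 15 windows of the G1/S and replication members (66.7%) and in 2 of 21 of the S/G2/M and mitosis members (9.52%), against 9.57% of all 32851 windows. Those 2 windows are of Cdk1, printed above, and Ccnb1. TTTGAA showed the opposite split, with 2 of 15 windows (13.3%) and 15 of 21 (71.4%), against 17.9% of all. CCAAT was present in 11 of 15 and 18 of 21 windows, against 37.4% of all. A match is a description of the letters only.

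The arrays had medians of 6.77 to 6.84 log2 units. Each correlated with its own group at a mean of 0.993 to 0.997. All 12 keratinocyte markers examined, Krt5, Krt14 and Trp63 among them, were above background on every array. Their levels were not all equal. At a limma adjusted p under 0.05, 2 were higher and 1 lower than wild type in RAS cells, and likewise in MT-HGF cells. Of all genes, 12.6% were higher and 19.9% lower in the former, and 17.1% and 23.9% in the latter. Epcam rose most, by 1.68 and 2.06 log2 units. Arrays within a group did differ in the cell cycle genes. Wild-type replicate 1 was the lowest of its group for 31 of 45 members (43.8% of all genes) and AG1478 replicate 3 for 24 (37.7% of all genes). RAS replicate 3 was the highest of its group for 30 members (41.2% of all genes). Replicates of 3 of the groups are labelled biological, but no label states separate animals or cultures. The p-values therefore measure only how far these arrays scatter, and that scatter may be technical.

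Wild-type cells had the lowest level of most cell cycle genes and MT-HGF cells the highest. The group mean was lowest in wild type for 32 of the 45 members, where 26.1% of all genes had their lowest mean there, and highest in MT-HGF cells for 31, where 16.4% of all genes had their highest. The order wild type, RAS, AG1478-treated MT-HGF, untreated MT-HGF, from low to high, was that of 17 members (37.8%) and of 5.12% of all genes. For a view of all members at once, each gene was centred on its mean over the 12 arrays and the 45 values were averaged per array. The 3 wild-type arrays then lay at -0.26, -0.18 and -0.15 log2 units, the RAS arrays at -0.021, -0.0018 and 0.054, the MT-HGF arrays at 0.16, 0.18 and 0.19, and the AG1478 arrays at 0.047, 0.017 and -0.028. Every wild-type array thus stood below every other array and every MT-HGF array above, while RAS and AG1478-treated arrays overlapped. Most differences were under 1.5-fold.

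**Figure D1:**
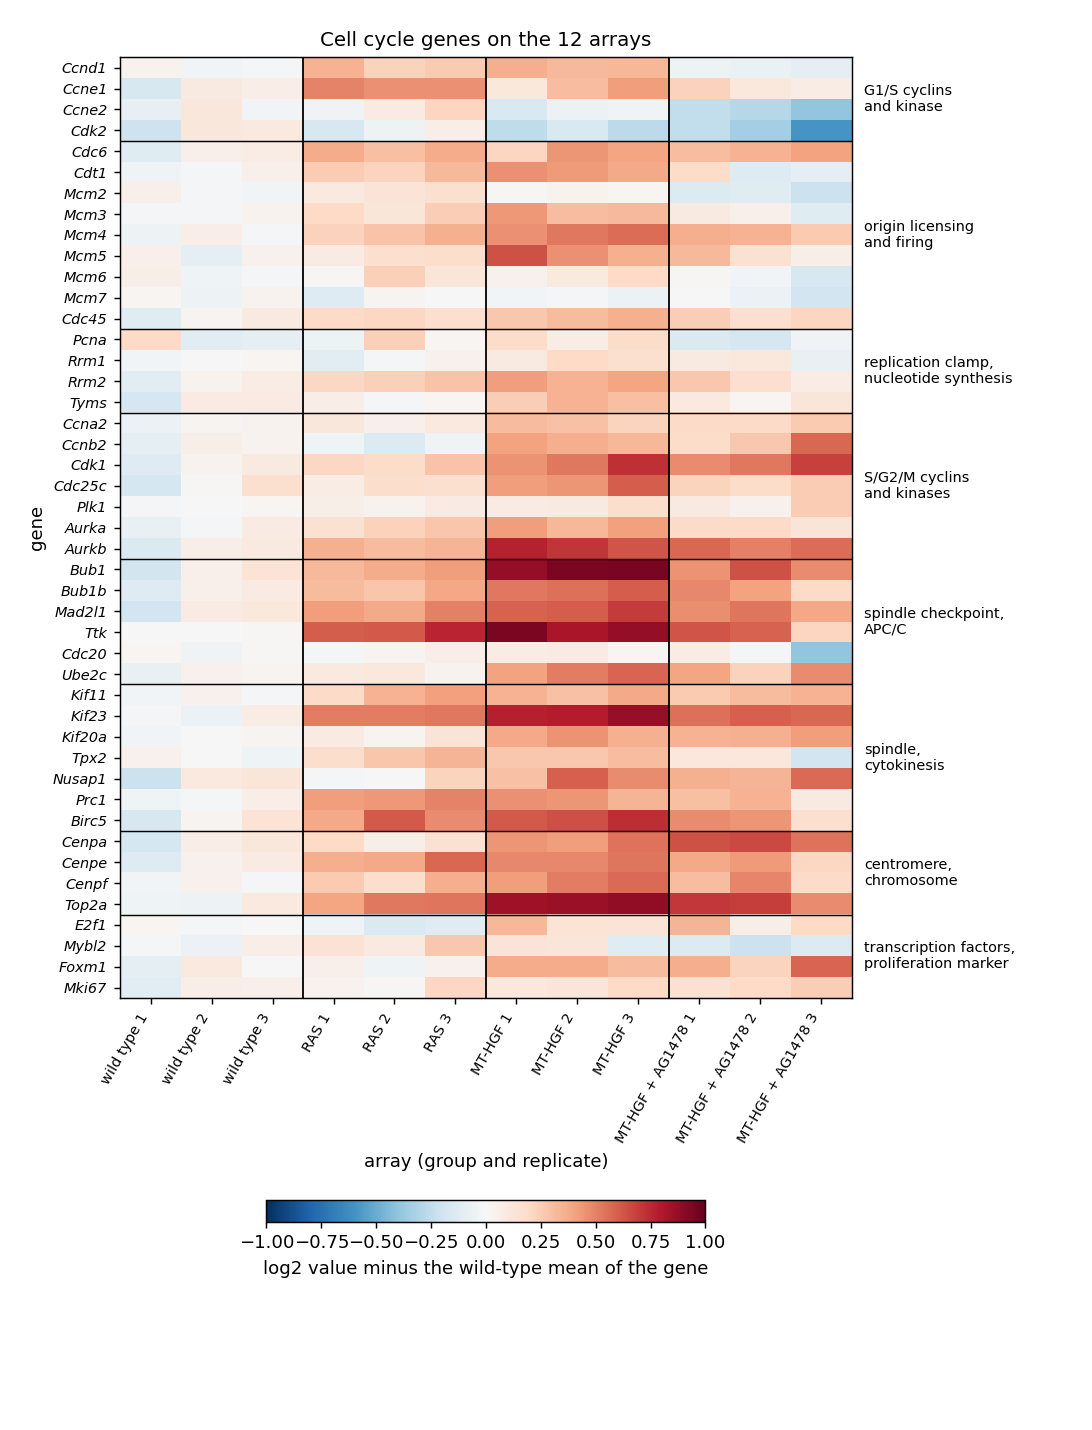
Heat map of the 45 members (rows, by role) on the 12 arrays (columns). Colour gives the log2 value minus the gene's mean over the 3 wild-type arrays, from -1 (blue) to 1 (red). The MT-HGF columns are the deepest red, above all for Bub1, Ttk, Kif23 and Top2a, while Cdk2 and Ccne2 turn blue in the AG1478 columns.

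The comparison of RAS with wild-type cells was made for the oncogene, from which transduction cannot be told apart. In RAS cells 22 of 45 members were higher and 0 lower, with a limma adjusted p under 0.05 over all genes, where 12.6% of all genes were higher and 19.9% lower. At an unadjusted p under 0.05 the counts were 25 and 0. All arrays of RAS cells stood above all of wild type for 28 members and below for 1, against 16.6% and 26.3% of all genes. The members' median difference was 0.19 log2 units, against -0.024 over all genes. The rises were led by the mitotic kinase gene Ttk, the kinesin gene Kif23, the survivin gene Birc5 and Top2a. Among the members Ttk alone passed 1.5-fold. Of the 22 calls, 15 held in all 23 alternative settings tried, and those of Cdt1, Mcm3, Cdc45, Rrm2, Aurka, Tpx2 and Cenpf were lost in at least 1. Without RAS replicate 3 the count was 16, and without wild-type replicate 1 it was 18.

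Setting MT-HGF against wild-type cells addressed what the HGF transgene changes. Here 34 of 45 members were higher and 0 lower, where 17.1% of all genes were higher and 23.9% lower, and the unadjusted counts were 35 and 1. The arrays did not overlap for 37 members with MT-HGF higher and 0 with it lower, against 20.8% and 29.6% of all genes. The median difference of the members was 0.37, against -0.031 log2 units over all genes. The 7 members higher by at least 1.5-fold were Bub1, Ttk, Top2a, Kif23, Aurkb, Birc5 and Mad2l1. The gene with the unadjusted fall was Cdk2. It was called lower (-0.22 log2 units here, limma adjusted p = 0.0892) with array weights, after quantile normalization or without wild-type replicate 1. In MT-HGF cells 32 of the 34 calls held in all 23 alternatives, the exceptions being Ccne1 and E2f1. Both comparisons share the wild-type arrays, so their counts are not independent.

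A direct comparison of MT-HGF with RAS cells gave the difference between both rises. In MT-HGF cells 19 of 45 members were higher and 0 lower than in RAS cells, where 13.4% of all genes were higher and 12.6% lower, with 24 and 2 at an unadjusted p under 0.05. Arrays were apart for 29 members with MT-HGF cells higher and 3 with RAS cells higher, each direction holding for 19.6% of all genes. The members' median was 0.18 log2 units and that of all genes -0.017. All 23 alternatives kept 13 of the calls, and those of Mcm4, Tyms, Ccna2, Bub1b, Nusap1 and Cenpf were lost in at least 1. The count of 19 fell to 14 without RAS replicate 2 and to 13 without MT-HGF replicate 2.

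The G1/S genes did not move as one. Ccnd1, which encodes the cyclin D1 through which growth factors drive entry into the cycle, was at 12.16, 12.09 and 12.11 log2 units on the wild-type arrays, 12.47, 12.35 and 12.38 on the RAS arrays, 12.48, 12.45 and 12.45 on the MT-HGF arrays and 12.07, 12.06 and 12.03 after AG1478. RAS and MT-HGF arrays lay above all wild-type arrays, and AG1478-treated arrays below all of them. The rise was 0.28 ± 0.059 in RAS cells (± is the limma SE, with n = 3 per group; limma adjusted p = 0.00148) and 0.34 ± 0.059 in MT-HGF cells (limma adjusted p = 0.00018). The treated cells differed from the untreated MT-HGF cells by -0.41 ± 0.059 (limma adjusted p = 0.000121) and from wild type by -0.066, with a 95% interval of -0.19 to 0.060, so that no difference from wild type was resolved. Ccnd1 has the only called fall among the G1/S genes after AG1478.

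Ccne1, one of 2 genes for cyclin E, was at 9.12, 9.36 and 9.34 in wild type, 9.77, 9.73 and 9.73 in RAS cells, 9.38, 9.58 and 9.69 in MT-HGF cells and 9.50, 9.38 and 9.35 after AG1478. It was highest in RAS cells, whose arrays stood above all others. Ccne1 rose by 0.47 ± 0.085 in RAS cells (limma adjusted p = 0.000375) and by 0.28 ± 0.085 in MT-HGF cells (limma adjusted p = 0.0151), a call that was lost in 4 of 23 alternatives. The other cyclin E gene, Ccne2, and Cdk2, the kinase both cyclins activate, were not called in either comparison. Against wild type, AG1478-treated cells had less Ccne2 (-0.31 ± 0.077, limma adjusted p = 0.00358) and less Cdk2 (-0.39 ± 0.099, limma adjusted p = 0.00409). All 4 G1/S members were lower in treated cells than in RAS cells, at -0.35 for Ccnd1, -0.34 for Ccne1, -0.40 for Ccne2 and -0.34 for Cdk2. The last of these calls was lost in 3 of 23 alternatives.

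Licensing loads the MCM helicase onto origins with the loaders CDC6 and CDT1, and CDC45 then helps to start it. Of the 9 genes, 5 were higher in RAS and 6 in MT-HGF cells. For this and the later roles, 12.6% of all genes were higher in RAS and 17.1% in MT-HGF cells. Mcm4, a helicase subunit, was at 9.49, 9.62 and 9.53 in wild type, 9.78, 9.83 and 9.90 in RAS cells, 10.002, 10.07 and 10.11 in MT-HGF cells and 9.91, 9.90 and 9.81 after AG1478. The 3 upper groups did not overlap with wild type, and MT-HGF arrays were the highest. It rose by 0.29 ± 0.065 in RAS cells (limma adjusted p = 0.00219) and by 0.51 ± 0.065 in MT-HGF cells (limma adjusted p = 6.35e-06). Cdt1 was at 8.95, 8.96 and 9.03 in wild type, 9.24, 9.20 and 9.31 in RAS cells, 9.44, 9.41 and 9.36 in MT-HGF cells and 9.17, 8.85 and 8.89 after AG1478. Its MT-HGF arrays stood above all others, and 2 of the 3 treated arrays lay below all wild-type arrays. Cdt1 rose by 0.42 ± 0.078 in MT-HGF cells (limma adjusted p = 0.00031) and was 0.43 ± 0.078 lower after AG1478 than without it (limma adjusted p = 0.000885), the largest difference of that comparison among the members.

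Among the other licensing genes, Mcm5 was higher by 0.48, Mcm3 by 0.36, Cdc6 by 0.35 and Cdc45 by 0.31 log2 units in MT-HGF cells. In RAS cells Cdc6 was higher by 0.35, Cdt1 by 0.27, Mcm3 by 0.19 and Cdc45 by 0.19, with the calls of Mcm3 and Cdc45 lost in 14 and 10 of 23 alternatives. For Cdc6 the difference between treated and untreated MT-HGF cells was 0.0044, with a 95% interval of -0.15 to 0.16. The helicase subunits were not alike: Mcm6 and Mcm7 were called in none of the 6 comparisons, and Mcm7 had differences between -0.080 and 0.0027. Mcm2 was at 10.25, 10.28 and 10.31 on the RAS arrays and 10.01, 10.03 and 9.93 after AG1478, and this difference of -0.29 was called (limma adjusted p = 0.00105). After AG1478, Mcm3 (-0.35), Mcm5 (-0.31) and Mcm2 (-0.18) fell with Cdt1, and the calls of Mcm5 and Mcm2 were lost in 6 and 14 of 23 alternatives.

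Of the 4 genes of the replication clamp and of nucleotide synthesis, 1 was higher in RAS and 2 in MT-HGF cells. With 4 genes, the count of 1 is near the 12.6% of all genes higher in RAS cells. Rrm2, the S-phase subunit of ribonucleotide reductase, was at 10.68, 10.82 and 10.86 in wild type, 10.99, 11.02 and 11.07 in RAS cells, 11.21, 11.13 and 11.18 in MT-HGF cells and 11.05, 10.95 and 10.86 after AG1478. The MT-HGF arrays were above all others. Rrm2 rose by 0.39 ± 0.070 in MT-HGF cells (limma adjusted p = 0.000237) and by 0.24 ± 0.070 in RAS cells (limma adjusted p = 0.0122). It fell by 0.22 after AG1478, a call lost in 14 of 23 alternatives. Tyms, which encodes thymidylate synthase, was at 9.06, 9.31 and 9.31 in wild type, 9.29, 9.21 and 9.24 in RAS cells, 9.47, 9.57 and 9.53 in MT-HGF cells and 9.32, 9.25 and 9.35 after AG1478. It was called higher in MT-HGF cells (0.30 ± 0.073; limma adjusted p = 0.00347), and its RAS arrays overlapped with wild type. Pcna, the sliding clamp, and Rrm1, the partner of Rrm2, were called in none of the 6 comparisons. Pcna had 2 clusters, with differences of 0.07 in RAS and 0.15 in MT-HGF cells from either cluster.

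**Figure D2:**
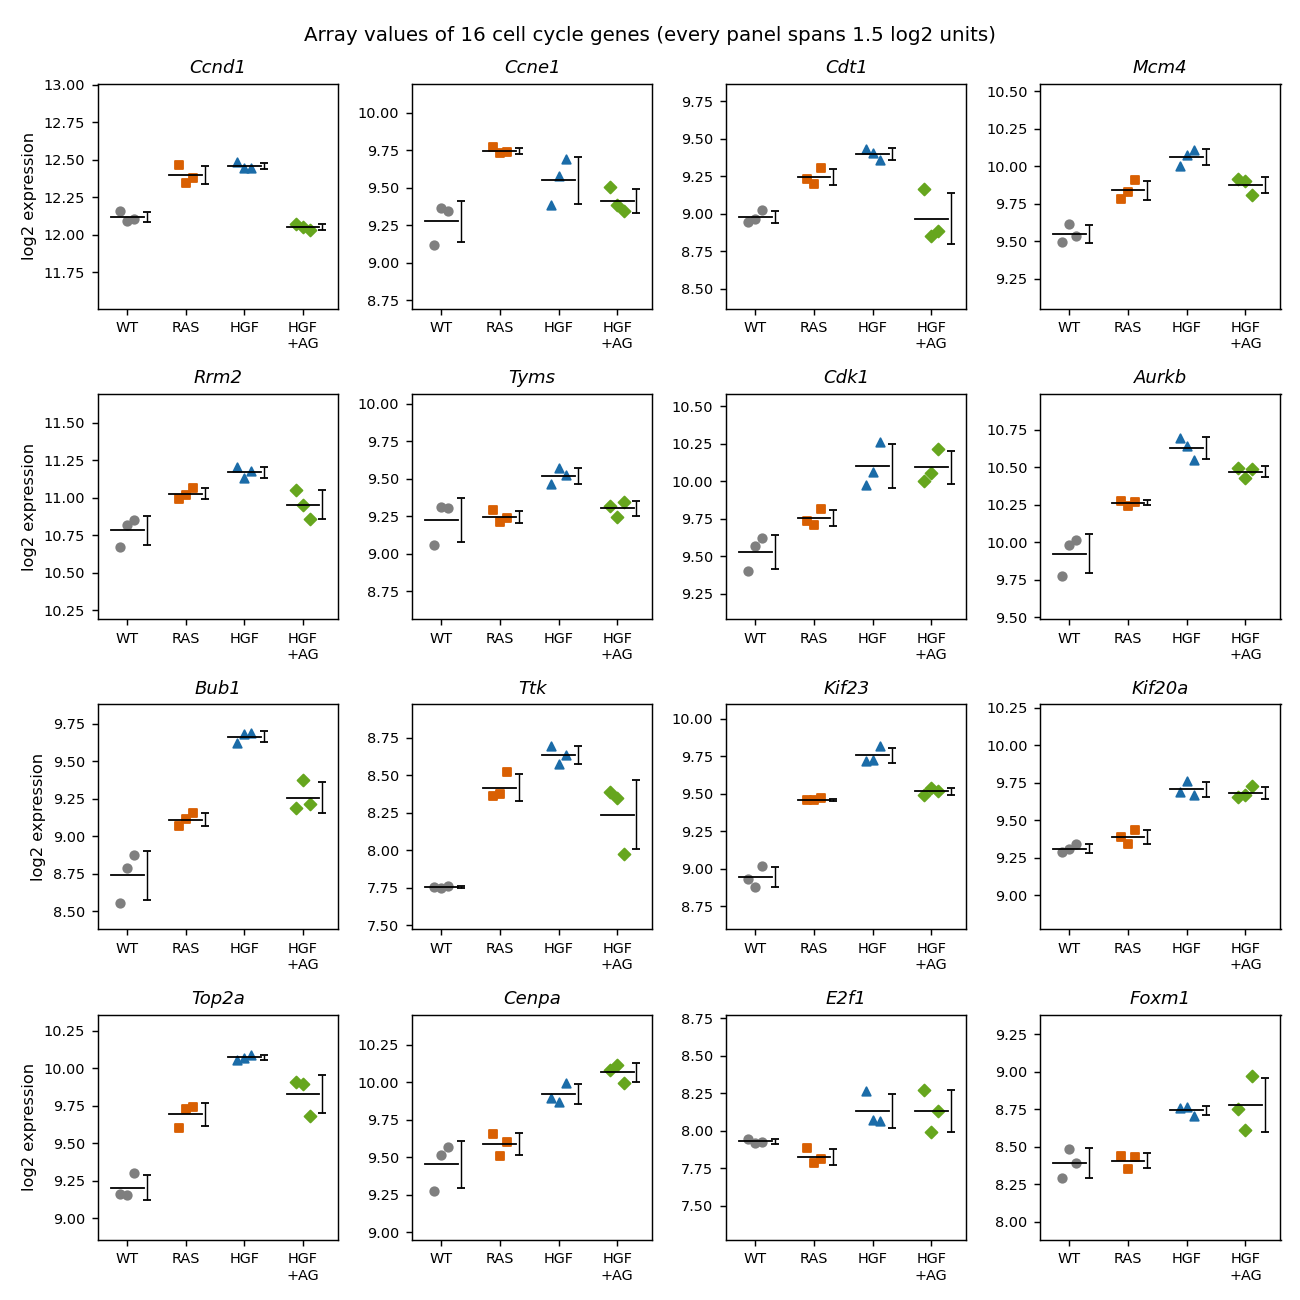
Log2 values of 16 members on each array (symbols), with the group mean (line) and SD over 3 arrays (bar); every panel spans 1.5 log2 units at its own level. Ccnd1 and Cdt1 lie near the wild-type level after AG1478, Cdk1 and Kif20a stay with untreated MT-HGF cells, and Bub1, Kif23 and Top2a lie between.

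The kinases and cyclins of S, G2 and M phase were higher in MT-HGF than in RAS cells for 5 of the 7 measured, against 13.4% of all genes. Against wild type, 2 were higher in RAS cells (Aurkb and Aurka), and in MT-HGF cells 6 were. Cdk1, the kinase that drives mitosis, was at 9.40, 9.57 and 9.62 in wild type, 9.74, 9.71 and 9.82 in RAS cells, 9.98, 10.06 and 10.26 in MT-HGF cells and 10.005, 10.06 and 10.21 after AG1478. Treated and untreated MT-HGF arrays overlapped with each other and stood above all RAS and wild-type arrays. Cdk1 was higher by 0.57 ± 0.085 in MT-HGF than in wild-type cells (limma adjusted p = 3.71e-05) and by 0.34 ± 0.085 than in RAS cells (limma adjusted p = 0.00631). In RAS cells its difference of 0.23 from wild type was not called (limma adjusted p = 0.0521), although 9 of 23 alternatives called it.

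Aurkb, the kinase of the chromosomal passenger complex, was at 9.78, 9.98 and 10.01 in wild type, 10.28, 10.24 and 10.27 in RAS cells, 10.69, 10.64 and 10.55 in MT-HGF cells and 10.49, 10.43 and 10.49 after AG1478. No 2 of the 4 groups overlapped, in the order wild type, RAS, treated and untreated MT-HGF. Its rise was 0.34 ± 0.071 in RAS cells (limma adjusted p = 0.0013) and 0.70 ± 0.071 in MT-HGF cells (limma adjusted p = 4.43e-07). The mitotic cyclin gene Ccnb2 differed by -0.075 log2 units between RAS and wild-type cells (limma adjusted p = 0.593) and rose by 0.37 in MT-HGF cells. Cdc25c, a phosphatase gene that activates CDK1 (0.49), the spindle pole kinase gene Aurka (0.39) and the cyclin A gene Ccna2 (0.28) were also higher there. Plk1, a kinase gene of mitotic entry, was called in none of the 6 comparisons.

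The spindle checkpoint holds cells in mitosis until every chromosome is attached. Of the 6 genes of the checkpoint and the anaphase-promoting complex, 4 were higher in RAS and 5 in MT-HGF cells. Bub1, a checkpoint kinase, was at 8.56, 8.79 and 8.87 in wild type, 9.07, 9.11 and 9.15 in RAS cells, 9.62, 9.68 and 9.69 in MT-HGF cells and 9.19, 9.37 and 9.21 after AG1478. The 4 groups did not overlap. MT-HGF cells were higher than wild type by 0.92 ± 0.080, or 1.9-fold (limma adjusted p = 7.50e-08), and higher than RAS cells by 0.55 ± 0.080 (limma adjusted p = 8.83e-05). Ttk, the checkpoint kinase also called MPS1, was at 7.76, 7.75 and 7.77 in wild type, 8.36, 8.37 and 8.52 in RAS cells, 8.70, 8.58 and 8.63 in MT-HGF cells and 8.39, 8.35 and 7.97 after AG1478. It rose by 0.66 ± 0.092 in RAS cells (limma adjusted p = 2.64e-05) and by 0.88 ± 0.092 in MT-HGF cells (limma adjusted p = 7.06e-07), the former being the largest rise of any member in RAS cells. The third AG1478 array was well below the other two.

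Mad2l1 and Bub1b, which inhibit the anaphase-promoting complex, rose by 0.43 and 0.33 in RAS and by 0.63 and 0.56 in MT-HGF cells. Ube2c, the ubiquitin-conjugating enzyme of that complex, was at 9.59, 9.60 and 9.53 on the RAS arrays and 9.89, 10.003 and 10.08 on the MT-HGF arrays. It was called in MT-HGF cells (0.50 ± 0.074 over wild type; limma adjusted p = 3.69e-05) and not in RAS cells (0.081; limma adjusted p = 0.487), and the difference between both was itself called (0.42 ± 0.074; limma adjusted p = 0.000517). Cdc20, the activator of the complex, was called in none of the 6 comparisons.

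All 7 genes of the spindle and of cytokinesis were higher in MT-HGF cells, and 5 in RAS cells. Kif23, a kinesin of the central spindle, was at 8.93, 8.88 and 9.02 in wild type, 9.46, 9.46 and 9.47 in RAS cells, 9.72, 9.73 and 9.82 in MT-HGF cells and 9.49, 9.54 and 9.52 after AG1478. The groups did not overlap, and its differences were the largest of all members relative to the spread between arrays. Kif23 rose by 0.52 ± 0.061 in RAS cells (limma adjusted p = 4.32e-06) and by 0.81 ± 0.061 in MT-HGF cells (limma adjusted p = 1.19e-08). Kif20a, another kinesin of cytokinesis, was at 9.29, 9.31 and 9.34 in wild type, 9.39, 9.34 and 9.44 in RAS cells, 9.69, 9.76 and 9.67 in MT-HGF cells and 9.66, 9.67 and 9.73 after AG1478. It was called in MT-HGF cells (0.39 ± 0.060; limma adjusted p = 4.89e-05) but not in RAS cells (0.079), with a difference between both of 0.32 ± 0.060 (limma adjusted p = 0.000974).

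The microtubule bundler gene Prc1 and the bipolar spindle kinesin gene Kif11 rose in both groups, by 0.45 and 0.32 in RAS cells and 0.41 and 0.34 in MT-HGF cells. The 95% intervals of the difference between MT-HGF and RAS cells were -0.19 to 0.12 for Prc1 and -0.12 to 0.16 for Kif11. Birc5, a passenger complex subunit and inhibitor of cell death, rose by 0.49 in RAS and 0.67 in MT-HGF cells. Tpx2, an activator of Aurora A, rose by 0.26 and 0.28. The spindle protein gene Nusap1 rose by 0.45 in MT-HGF cells, and its difference in RAS cells was 0.067 (limma adjusted p = 0.715).

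Of the centromere and chromosome genes, 3 were higher in RAS cells and all 4 in MT-HGF cells. Top2a, the topoisomerase that untangles replicated chromosomes, was at 9.16, 9.15 and 9.30 in wild type, 9.60, 9.73 and 9.74 in RAS cells, 10.06, 10.07 and 10.09 in MT-HGF cells and 9.91, 9.90 and 9.68 after AG1478. Its MT-HGF arrays lay above all others. Top2a was higher by 0.49 ± 0.074 in RAS cells (limma adjusted p = 7.17e-05) and by 0.87 ± 0.074 in MT-HGF cells (limma adjusted p = 6.31e-08), a difference between both of 0.38 ± 0.074 (limma adjusted p = 0.00117). Cenpa, the histone variant that marks centromeres, was at 9.27, 9.52 and 9.57 in wild type, 9.66, 9.51 and 9.60 in RAS cells, 9.90, 9.87 and 9.997 in MT-HGF cells and 10.09, 10.12 and 9.998 after AG1478. It was the member with the largest rise over RAS cells after treatment, at 0.48 ± 0.079 (limma adjusted p = 0.000161). Cenpe, a kinetochore motor, and Cenpf, a kinetochore protein, rose by 0.44 and 0.27 in RAS and by 0.50 and 0.50 in MT-HGF cells.

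Of the 3 transcription factors of the cycle and the proliferation marker, 0 were called in RAS cells (1 higher at an unadjusted p under 0.05 in limma) and 2 were higher in MT-HGF cells. With 4 genes, the count of 0 is near the 12.6% of all genes higher in RAS cells. Foxm1, which drives the late wave, was at 8.29, 8.49 and 8.39 in wild type, 8.44, 8.35 and 8.43 in RAS cells, 8.76, 8.76 and 8.70 in MT-HGF cells and 8.75, 8.61 and 8.97 after AG1478. It rose by 0.35 ± 0.083 in MT-HGF cells (limma adjusted p = 0.00246), against 0.017 in RAS cells, which overlapped with wild type. E2f1, the factor of the first wave, was at 7.95, 7.92 and 7.92 in wild type, 7.89, 7.78 and 7.81 in RAS cells, 8.26, 8.07 and 8.06 in MT-HGF cells and 8.27, 7.99 and 8.13 after AG1478. All RAS arrays were below all wild-type arrays, a difference of -0.10 that was not called (limma adjusted p = 0.372). The rise of 0.20 in MT-HGF cells was called (limma adjusted p = 0.0475) but lost in 14 of 23 alternatives, while MT-HGF exceeded RAS cells by 0.30 ± 0.078 (limma adjusted p = 0.00798). Mybl2, which encodes B-MYB, was not called against wild type in any group.

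Mki67, the gene of the proliferation antigen Ki-67, was at 9.91, 10.09 and 10.08 in wild type, 10.06, 10.04 and 10.23 in RAS cells, 10.13, 10.15 and 10.23 in MT-HGF cells and 10.18, 10.23 and 10.27 after AG1478. RAS arrays overlapped with wild type, and the MT-HGF arrays lay only just above it. The differences were 0.085 in RAS cells (limma adjusted p = 0.443; 95% interval -0.068 to 0.24) and 0.14 in MT-HGF cells (limma adjusted p = 0.136; 95% interval -0.011 to 0.30). In treated cells Mki67 was higher than in wild type by 0.20 ± 0.072 (limma adjusted p = 0.0358), a call lost in 7 of 23 alternatives.

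**Figure D3:**
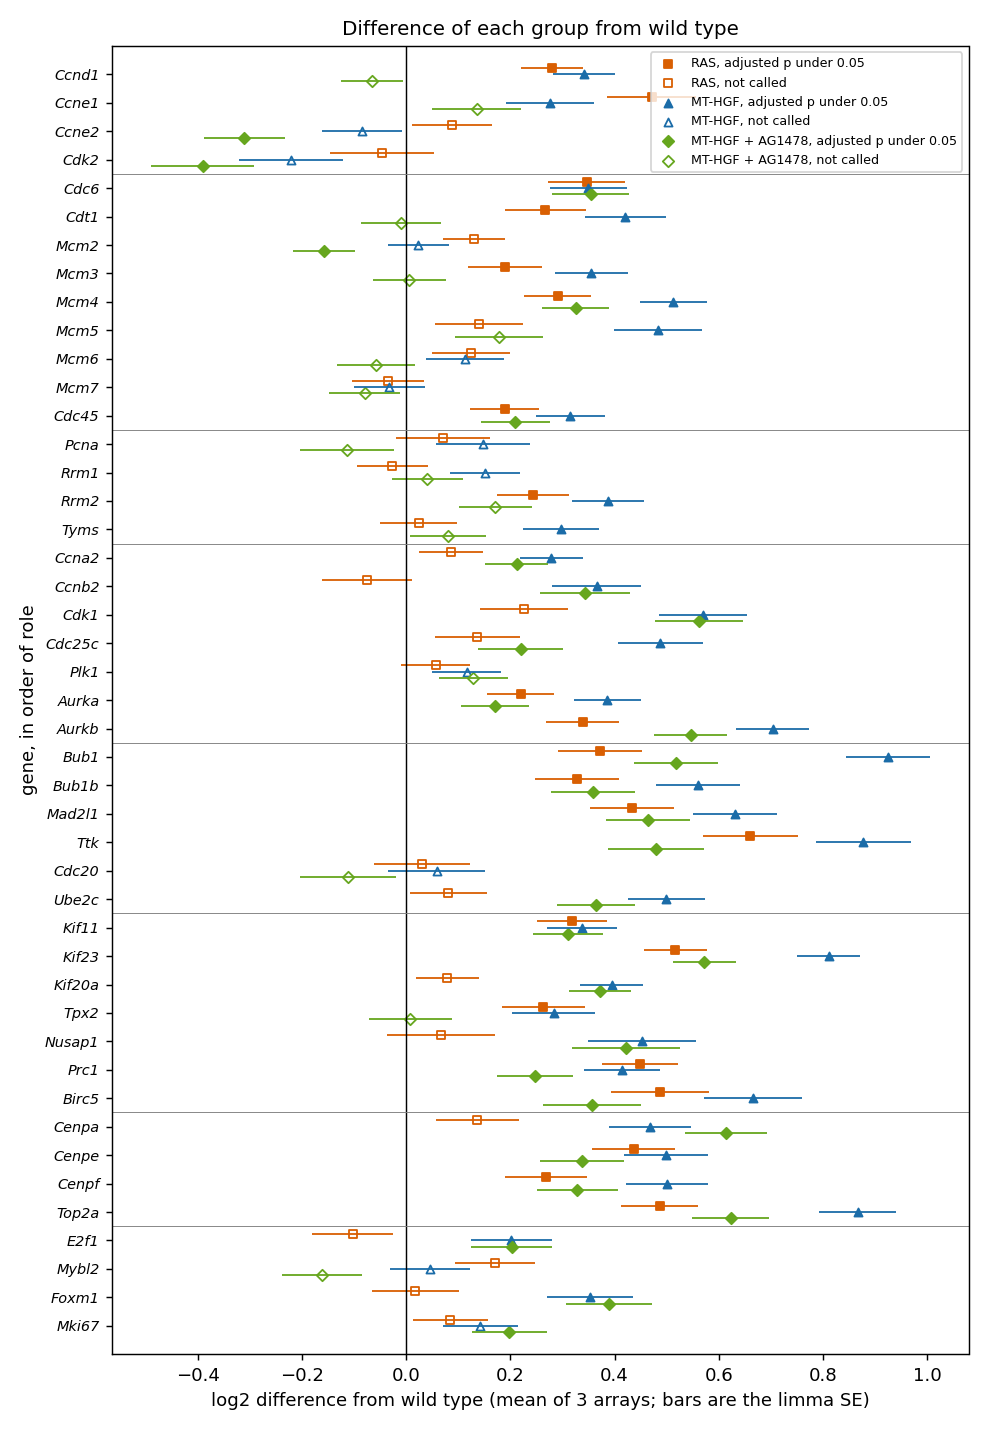
Log2 difference of each member from wild type in RAS (squares), MT-HGF (triangles) and AG1478-treated MT-HGF cells (diamonds), means of 3 arrays per group with the limma SE; filled symbols passed an adjusted p of 0.05. Triangles lie farthest right for most mitotic genes, and the diamonds of Ccnd1, Ccne2, Cdk2 and several Mcm genes lie at or left of 0.

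The comparison of AG1478-treated with untreated MT-HGF cells was made for the EGFR inhibitor. Treatment, mock transduction, serum and preparation cannot be told apart in it. After AG1478, 14 of 45 members were lower and 0 higher, where 9.91% of all genes were lower and 6.57% higher, and 24 and 0 passed an unadjusted p under 0.05. Treated arrays lay entirely below untreated ones for 25 members and entirely above for 1, against 17.5% and 16.6% of all genes. The median difference of the members was -0.17, against 0.019 log2 units over all genes. Besides Ccnd1, Cdt1, Mcm2, Mcm3, Mcm5 and Rrm2, the genes that fell were Bub1 (-0.41 ± 0.080; limma adjusted p = 0.00191), Ttk (-0.40 ± 0.092; limma adjusted p = 0.00603), Birc5 (-0.31), Tpx2 (-0.28), Cdc25c (-0.27), Top2a (-0.24), Kif23 (-0.24) and Aurka (-0.22). Ccnd1, Cdt1, Mcm3, Bub1 and Ttk were lower in all 23 alternatives. Without AG1478 replicate 3, Tpx2 differed by -0.17 and was not called. The count of 14 depended on single arrays and on the threshold. It was 6 without AG1478 replicate 3, 9, 6 and 7 without MT-HGF replicate 1, 2 and 3, 9 with p adjusted over all kept clusters and 5 at an adjusted p of 0.01.

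Several late genes were not called between treated and untreated cells, among them the mitotic kinase gene Cdk1. Those listed next lay near 0, but the late roles as a whole were lower. Their medians were -0.067 (S/G2/M kinases), -0.19 (checkpoint), -0.17 (spindle) and -0.17 (centromere), against 0.019 over all genes. The early roles had -0.20 (G1/S), -0.18 (licensing) and -0.22 (clamp and nucleotides). Whether early and late genes differ here was not tested. The difference between treated and untreated cells was -0.0080 for Cdk1 (95% interval -0.19 to 0.17), -0.022 for Ccnb2 (-0.20 to 0.16), -0.023 for Kif20a (-0.15 to 0.10), -0.031 for Nusap1 (-0.25 to 0.19) and 0.037 for Foxm1 (-0.14 to 0.21). For these genes a fall of 1.5-fold lies outside the interval, but no member fell that far in this comparison. The smaller fall called for Mcm2 lies inside the intervals of Cdk1, Ccnb2 and Nusap1. Cenpa was at 0.15 (95% interval -0.022 to 0.31; limma adjusted p = 0.235), and its rise was called with array weights and after quantile normalization.

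Treated MT-HGF cells still differed from wild type in the mitotic genes. In all, 27 of 45 members were higher and 3 lower than in wild type, where 16.8% of all genes were higher and 26.2% lower. Without overlap of the arrays, 30 were higher and 5 lower, against 21.1% and 29.4% of all genes. The members' median was 0.21, against 0.0036 log2 units over all genes. Of the 24 measured genes of the 4 groups from the S/G2/M kinases to the chromosome, 21 were higher, led by Top2a (0.62 ± 0.074; limma adjusted p = 3.55e-06), Cenpa (0.61 ± 0.079; limma adjusted p = 8.40e-06), Kif23 (0.57), Cdk1 (0.56) and Aurkb (0.55). Of the 17 genes of G1/S, licensing and nucleotide synthesis, 3 were higher, namely Cdc6 (0.35), Mcm4 (0.33) and Cdc45 (0.21), and Cdk2, Ccne2 and Mcm2 were lower. Of the 30 calls, 23 held in all alternatives, and those of Mcm2, Cdc45, Cdc25c, Aurka, Prc1, E2f1 and Mki67 did not. Whether the late genes differ from the early ones in this respect was not tested.

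Against RAS cells, 9 members were higher and 9 lower after AG1478, where 16.3% of all genes were higher and 20.4% lower. Both counts are thus near the shares of all genes. Arrays did not overlap for 13 members that were higher and 10 that were lower, against 21.9% and 23.9% of all genes. The median was 0.030 log2 units for the members and 0.018 for all genes. The 9 higher genes were Cenpa, Ccnb2 (0.42), Foxm1 (0.37), Nusap1 (0.36), Cdk1 (0.34), E2f1 (0.31), Kif20a (0.29), Ube2c (0.28) and Aurkb (0.21). The 9 lower genes were the 4 of G1/S with Mybl2 (-0.33), Mcm2, Cdt1 (-0.28), Tpx2 (-0.26) and Prc1 (-0.20). The calls of Cdk2, Cdt1, Aurkb, Tpx2, Nusap1 and Prc1 were lost in at least 1 of 23 alternatives. Without AG1478 replicate 3 the difference was -0.15 for Tpx2 and -0.13 for Prc1, and with array weights it was -0.14 for Cdt1.

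**Figure D4:**
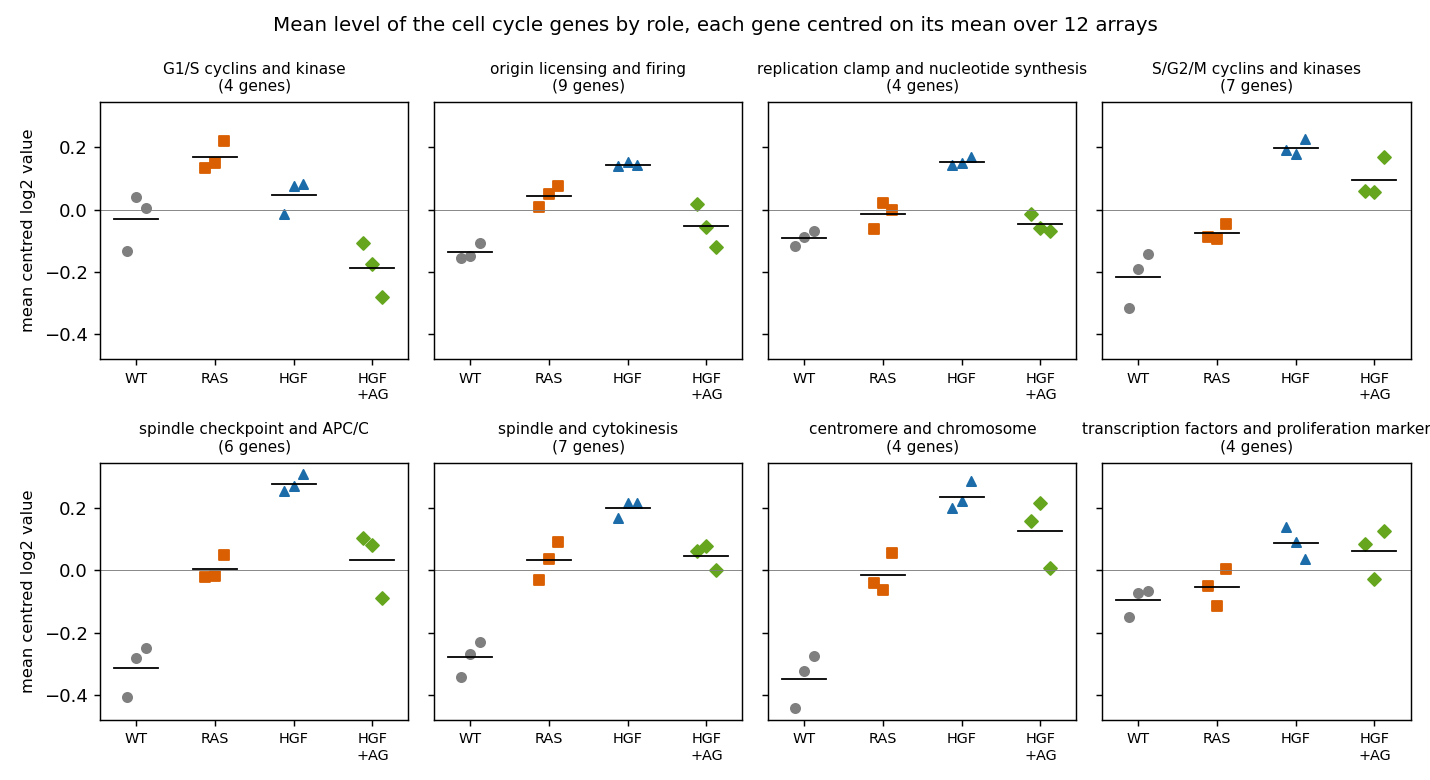
Mean level of the members of each role on each array (symbols), every gene centred on its mean over the 12 arrays, with the group mean as a line. The G1/S group of AG1478-treated cells lies at -0.11, -0.18 and -0.28, all but the first below every wild-type array, whereas the S/G2/M kinases of treated cells, at 0.058, 0.056 and 0.17, lie above every wild-type and RAS array.

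Other genes of the cycle, outside the 46, were counted in named lists. As a yardstick for every such list, RAS cells had 12.6% of the 15868 tested genes called higher and 19.9% called lower. For MT-HGF cells against wild type the corresponding shares were 17.1% and 23.9%. Between treated and untreated MT-HGF cells they were 6.57% higher and 9.91% lower. Replication genes had 18 of 46 measured higher and 4 lower in RAS cells, and 19 and 3 in MT-HGF cells. In MT-HGF cells the thymidine kinase gene Tk1 (0.92) and the helicase factor gene Gins1 (0.73) rose most, and the origin recognition gene Orc5 fell (-0.52). After AG1478 16 of these were lower and 0 higher (20 and 0 unadjusted), with Tipin at -0.42 and Pola1, the catalytic subunit of DNA polymerase alpha, at -0.40. Kinetochore and checkpoint genes had 11 of 31 higher and 0 lower in RAS cells (16 and 1 unadjusted), and 23 and 0 in MT-HGF cells (25 and 1 unadjusted), among them Cenpq (0.65) and Cenpm (0.61). They had 0 higher and 10 lower after AG1478 (0 and 18 unadjusted), with the NDC80 complex gene Spc25 at -0.68. The list medians in MT-HGF cells were 0.16 and 0.36 log2 units.

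Spindle and cytokinesis genes had 20 of 41 higher and 1 lower in RAS cells and 29 and 1 in MT-HGF cells, with a median of 0.36 in the latter. The kinesin gene Kif15 (0.88) and Wee1, which encodes an inhibitory kinase of CDK1 (0.82), rose in MT-HGF cells, and Gtse1 fell (-0.48). Wee1 was also the largest rise of this list in RAS cells (0.91) and the largest fall after AG1478 (-0.49). That list had 11 lower and 0 higher after AG1478 (19 and 1 unadjusted). Condensin and cohesin genes had 9 of 18 higher in RAS and 8 in MT-HGF cells with 0 lower in both (0 unadjusted), led by the condensin gene Ncapg (0.63 and 0.75), and 6 were lower after AG1478. Genes of the S-phase checkpoint and of homologous recombination had 7 of 24 higher and 1 lower in RAS cells, 10 and 2 in MT-HGF cells, and 0 and 8 after AG1478 (0 and 12 unadjusted), with Brip1 at -0.49 and the checkpoint kinase gene Chek1 at -0.45. The Chek1 difference was -0.25 without AG1478 replicate 3, and its call was lost without MT-HGF replicate 3. Subunits of the anaphase-promoting complex had 0 of 15 higher and 3 lower in RAS cells (0 and 4 unadjusted), 2 and 3 in MT-HGF cells, and 0 and 0 after AG1478 (1 and 4 unadjusted). The lower counts of these subunits are near the share of all genes, 19.9% in RAS and 23.9% in MT-HGF cells.

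The regulators upstream of the cycle differed among themselves. E2f8, a repressor of the E2F family and itself an E2F target, was at 8.45, 8.64 and 8.65 in wild type, 10.34, 10.32 and 10.50 in RAS cells, 9.89, 9.89 and 10.02 in MT-HGF cells and 9.44, 9.33 and 9.54 after AG1478. It rose by 1.81 ± 0.079 in RAS cells (limma adjusted p = 1.51e-11), more than any member, and by 1.36 ± 0.079 in MT-HGF cells (limma adjusted p = 4.87e-10), and it fell by 0.50 after AG1478 (limma adjusted p = 0.000271). The related repressor gene E2f7 rose by 0.52 and 0.59, and Rb1, the retinoblastoma gene, fell by 0.43 and 0.40. Over this RB and E2F list, 5 of 16 were higher and 3 lower in RAS and likewise 5 and 3 in MT-HGF cells, where the share of all genes was 12.6% higher and 19.9% lower in the former and 17.1% and 23.9% in the latter. The lower count is thus no more than that of all genes. After AG1478 2 were higher, E2f2 most (0.59), and 5 lower.

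Inhibitors of cyclin-dependent kinases moved in both directions. Of 8 listed, 7 were measured, and Cdkn1a was not among the genes tested. RAS cells had 2 of the 7 higher and 1 lower, with 4 and 1 in MT-HGF cells, and 2 and 0 after AG1478 (2 and 0 unadjusted). All genes were higher and lower at 12.6% and 19.9% in RAS cells, and at 17.1% and 23.9% in MT-HGF cells. After AG1478 the shares were 6.57% and 9.91%. The lower counts of the inhibitors are thus no more than those of all genes. Cdkn2c, which encodes p18, rose by 0.78 ± 0.10 in RAS (limma adjusted p = 1.14e-05) and 0.98 ± 0.10 in MT-HGF cells (limma adjusted p = 5.67e-07). Cdkn1b, which encodes p27, rose by 0.51 in MT-HGF cells and by a further 0.24 ± 0.078 after AG1478 (limma adjusted p = 0.045), a call lost when any of 9 of the 12 arrays was left out. Cdkn2b, which encodes p15, fell by 0.56 in RAS and 0.54 in MT-HGF cells and was 0.54 ± 0.082 higher after AG1478 than without it (limma adjusted p = 0.000165). Cdkn1c, which encodes p57, rose by 0.56 in RAS and 0.50 in MT-HGF cells, and its difference after AG1478 was -0.067 (limma adjusted p = 0.559). Among other G1 genes, 1 of 11 was higher and 2 lower in RAS cells and 2 and 3 in MT-HGF cells, close to those same shares of all genes. Cks1b, a subunit of CDK complexes, rose by 0.54 and 1.03, while the cyclin D2 gene Ccnd2 fell by 0.48 and 0.63. After AG1478 Cks1b (-0.32) and Ccnd2 (-0.25) were lower, with 0 of this list higher and 2 lower (1 and 7 unadjusted). The call of Cks1b was lost without MT-HGF replicate 3 or AG1478 replicate 1.

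Genes of ribosome biogenesis and growth were mostly lower in MT-HGF cells. Of 20 measured, 1 was higher and 6 lower in RAS cells, where 12.6% of all genes were higher and 19.9% lower. In MT-HGF cells 1 was higher and 16 lower, against 17.1% and 23.9% of all genes. The medians were -0.11 log2 units in RAS and -0.45 in MT-HGF cells. The exception in both was Odc1, the rate-limiting enzyme gene of polyamine synthesis, which rose by 0.99 ± 0.069 (limma adjusted p = 6.10e-09) and 0.77 ± 0.069 (limma adjusted p = 1.14e-07). Odc1 fell by 1.00 ± 0.069 after AG1478 (limma adjusted p = 3.94e-08). Polr1b, a subunit gene of RNA polymerase I (-0.67), and the ribosome assembly gene Pes1 (-0.63) fell most in MT-HGF cells.

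Markers of other cell types moved between the groups as well, and their part in the results was not tested. Fibroblast markers had 1 of 17 measured higher and 12 lower in RAS cells, and 4 and 12 in MT-HGF cells. Their mean level was 8.48 to 8.51 log2 units on the wild-type arrays, 7.88 to 7.92 in RAS cells, 8.19 to 8.28 in MT-HGF cells and 8.21 to 8.26 after AG1478. Melanocyte markers had 0 of 12 higher and 9 lower in MT-HGF cells (0 and 9 unadjusted), with means of 9.25 to 9.50 in wild type, 9.36 to 9.52 in RAS cells, 8.92 to 9.11 in MT-HGF cells and 8.92 to 9.02 after AG1478, and 10 to 11 of them were above background in each group. Between treated and untreated MT-HGF cells 0 melanocyte markers were called (1 higher and 0 lower unadjusted), and 2 fibroblast markers were lower. In that comparison 6.57% of all genes were higher and 9.91% lower, so the fibroblast count is near the share of all genes. Of the 10 leukocyte markers measured, 3 were above background on all wild-type arrays and 1 in each other group. They had 1 higher and 4 lower in RAS cells and 1 and 5 in MT-HGF cells, the higher counts being near the shares of all genes. Cd68, a lysosomal protein gene of macrophages, was higher by 1.29 ± 0.11 and 1.28 ± 0.11 (limma adjusted p = 1.22e-07 and 9.26e-08). Lyz2, the lysozyme gene of myeloid cells, was above background in wild type alone, and lower by at least 0.71 log2 units in RAS and 0.77 in MT-HGF cells, set against the background of their arrays (limma adjusted p = 2.77e-06 and 2.26e-07). Ptprc, the pan-leukocyte gene for CD45, was at background in wild-type, RAS and MT-HGF cells. Of the 9 endothelial markers 1 was above background in each group.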

How the data were processed

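Each of 12 samples has 1 array, of the Affymetrix Mouse Gene 1.0 ST type, and the authors deposited log2 expression values summarised by RMA per the submitters' processing notes. Background correction and quantile normalization are usual parts of RMA, which tends to compress fold changes. Of 35511 transcript clusters, 21789 had 1 gene symbol in the platform annotation. A cluster was kept where at least 3 arrays had it over their own 30th percentile, and the kept cluster with the highest mean stood for a gene, giving 15868 genes. Groups followed the sample titles. One model of 4 group means over all 12 arrays was fitted with limma 3.58.1 in R 4.3.3 (8 residual degrees of freedom) and tested two-sided, with Benjamini-Hochberg adjustment over all genes, and a call is an adjusted p under 0.05. Errors of differences are the limma SE with 3 arrays per group. Background was the 95th percentile, per array, of 157 chemosensory receptor clusters. The number of arrays limits the precision. The code was tested on simulated data. The members, gene lists and motif words were chosen with earlier results of these data known. All members could be named. Array values are given for the 2 members of each role with the largest F over the groups, and for Mki67, Ccnd1 and Cdk1, with a few more chosen after their values were seen. In the other lists, up to 2 called rises and 2 falls of the largest size per comparison could be named. The alternatives were other filters, scalings, variance models, array weights, the representative cluster, the set of arrays or genes, the threshold, a replicate block and leaving out each array. The replicate numbers were not used to pair the arrays in the main model.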

Additional observations from a re-analysis of the deposited data

How the results depend on the processing

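No called member reversed its sign in any of the 6 comparisons under the 23 alternatives, and the counts over all members not given here stayed within 1.5 times their value. With MT-HGF against wild type, 1 member (Cdk2) was lower with array weights, 1 after quantile normalization and 0 to 1 when single arrays were left out. With MT-HGF against RAS, 1 was lower with array weights (Ccne1), 1 after quantile normalization (Ccne2) and 0 to 1 with an array left out. With AG1478-treated against untreated MT-HGF cells, 1 member (Cenpa) was higher with array weights and 1 after quantile normalization. The lower count of 14 there became 9 with p adjusted over all kept clusters, 5 at an adjusted p of 0.01, and 6 to 16 with an array left out. The cause was not tested, except that the stricter threshold, the larger set of tests and the missing array act by their own construction. With the replicate number as a block, members called higher and lower were 22 and 0 (RAS against wild type), 34 and 0 (MT-HGF against wild type), 18 and 0 (MT-HGF against RAS), 0 and 12 (treated against untreated), 27 and 2 (treated against wild type) and 9 and 9 (treated against RAS). Same-numbered arrays deviated together, at a correlation over 0.1, in 7 of 18 pairs (range -0.44 to 0.53). Among wild-type, RAS and MT-HGF arrays, every pair of replicate 1 and of replicate 3 did so (0.27 to 0.53). The pairs of replicate 2 in these groups did not (-0.24 to 0.087). The main model did not take the number as a pairing, so it does not remove a deviation that these arrays share. All members lay above background, though Cdc25c only just on wild-type replicate 1 (7.16, where the background was 7.05). The 3 arrays per group limit all values. For genes outside the members, leaving out single arrays was chosen after seeing the data.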
